A study of Mus musculus with 4 samples.

Results

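In mouse liver 12 h after partial hepatectomy (PHx), 1614 of 10170 regions marked by acetylated histone H3 lysine 27 (H3K27ac) each overlapped at least 2 separate regions of the sham liver list. These joining regions were chosen by overlap alone: a PHx region belonged to the set when it shared 1 bp or more with each of 2 or more of the 11602 sham regions. They were 15.9% of the PHx list, and the 3778 sham regions they joined were 32.6% of the sham list. The remaining PHx regions overlapped exactly 1 sham region (6269) or none (2287). Since the overlap chose the set, the number of sham regions joined and the length between them are descriptions, and neither was tested.

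The PHx group had 2 liver libraries from wild-type C57/BL6J mice taken 12 h after removal of 70% of the liver, and the sham group had 2 from wild-type C57/BL6J mice after a sham operation. The sources used here give no age or sex, do not tie libraries to animals, and give no sampling time for the sham libraries in the labels, although the design text speaks of 0 h. Time after surgery therefore cannot be told apart from hepatectomy. H3K27ac was mapped by CUT&Tag, in which an antibody tethers a transposase that cuts and tags the DNA at the mark, in nuclei of whole frozen liver, so all cell types of the organ contributed.

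H3K27ac marks active promoters and enhancers. Most marked intervals lie at a transcription start site (TSS) or at a distal element within or near a gene, and long stretches in which neighbouring marked intervals run together are known as broad domains or clustered enhancers and are often found at genes of cell identity. After partial hepatectomy, remaining hepatocytes leave quiescence under interleukin-6 (IL-6), growth factors and metabolic signals, while they go on making plasma proteins.

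Each group had 1 merged list of regions without signal or read counts. There is thus no value per library, no replicate error and no p-value, and the depth of the libraries is unknown. The tables record which peaks of either library went into each region, and this was the only view of the replicates. The PHx libraries differed from each other: library 2 alone was cut into several peaks in 1173 PHx regions (11.5%) and library 1 alone in 246 (2.42%), against 551 (4.75%) and 776 (6.69%) of the sham regions. A region that held 1 peak of 1 replicate and several of the other was therefore common within each group. Its frequency within the PHx group was of the same order as the 15.9% of PHx regions that joined sham regions. These are unlike measures, peaks of 1 library in a merged region and overlaps of 2 merged lists, and their relation was not tested. The reverse of joining was rare, since 85 sham regions (0.733%) touched 2 or more PHx regions. The hepatocyte genes Alb, Apoa1, Ttr and Hnf4a had a region over a listed TSS in both groups, and Cps1 had one of 29267 bp in the PHx list and none in the sham list.

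Promoter sequences are shown for 6 genes at 3 joined loci described below, because in each locus the PHx region ran over promoters that were separate in sham liver. The fibrinogen chains Fgg, Fga and Fgb and the inter-alpha-trypsin inhibitor heavy chains Itih4 and Itih3 are plasma proteins, and Socs3 encodes the feedback inhibitor of IL-6 signalling through STAT3. The sequences are from RefSeq on GRCm38.p6, read 5′ to 3′ along each gene, from 250 bases before to 50 bases after the start. The regions of the study are on GRCm39, so these positions are not comparable with the region coordinates below. Capitals mark matches, on either strand, to an AP-1 element (TGANTCA), a cAMP response element (TGACGTCA), a STAT element (TTCNNNGAA), a C/EBP element (TTGCNNAA), an HNF4 element (CAAAGTCCA), a TATA box (TATAAA) or a CCAAT box (CCAAT).
Fgg, chr3:83007474-83007773, plus strand: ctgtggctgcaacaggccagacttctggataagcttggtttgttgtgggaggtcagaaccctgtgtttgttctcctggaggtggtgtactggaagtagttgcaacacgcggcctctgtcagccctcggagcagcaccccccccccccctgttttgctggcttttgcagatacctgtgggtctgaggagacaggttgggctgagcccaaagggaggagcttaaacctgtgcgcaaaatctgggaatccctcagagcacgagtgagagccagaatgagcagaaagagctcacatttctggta
Fga, chr3:83025903-83026202, plus strand: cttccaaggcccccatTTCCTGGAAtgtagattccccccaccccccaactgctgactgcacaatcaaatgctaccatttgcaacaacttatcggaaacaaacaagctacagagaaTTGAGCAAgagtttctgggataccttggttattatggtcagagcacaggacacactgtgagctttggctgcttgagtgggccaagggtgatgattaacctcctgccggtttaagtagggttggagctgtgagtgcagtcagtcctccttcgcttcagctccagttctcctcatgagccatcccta
Fgb, chr3:83049814-83050113, minus strand: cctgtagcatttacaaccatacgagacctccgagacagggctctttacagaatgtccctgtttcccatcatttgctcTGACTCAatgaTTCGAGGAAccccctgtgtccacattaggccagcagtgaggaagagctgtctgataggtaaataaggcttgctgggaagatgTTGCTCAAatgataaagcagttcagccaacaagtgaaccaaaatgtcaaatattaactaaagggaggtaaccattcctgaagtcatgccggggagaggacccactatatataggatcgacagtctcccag
Itih4, chr14:30886226-30886525, plus strand: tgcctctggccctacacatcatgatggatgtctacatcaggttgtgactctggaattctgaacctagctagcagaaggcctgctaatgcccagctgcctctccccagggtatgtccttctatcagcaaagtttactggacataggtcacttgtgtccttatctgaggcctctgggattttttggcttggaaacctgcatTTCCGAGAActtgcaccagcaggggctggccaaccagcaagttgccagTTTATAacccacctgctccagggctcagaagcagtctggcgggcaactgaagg
Itih3, chr14:30923538-30923837, minus strand: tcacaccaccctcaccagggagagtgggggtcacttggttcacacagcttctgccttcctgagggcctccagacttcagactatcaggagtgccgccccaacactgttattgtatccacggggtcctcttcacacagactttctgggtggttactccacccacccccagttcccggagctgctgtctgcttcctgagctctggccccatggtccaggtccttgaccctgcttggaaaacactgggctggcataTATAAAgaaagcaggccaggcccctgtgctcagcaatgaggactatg
Socs3, chr11:117969317-117969616, minus strand: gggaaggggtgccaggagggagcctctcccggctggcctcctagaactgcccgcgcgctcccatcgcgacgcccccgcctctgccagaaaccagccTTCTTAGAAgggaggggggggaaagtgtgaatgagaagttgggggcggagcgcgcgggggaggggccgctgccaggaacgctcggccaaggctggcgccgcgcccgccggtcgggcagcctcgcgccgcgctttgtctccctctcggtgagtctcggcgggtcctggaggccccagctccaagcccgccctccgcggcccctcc

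Counted from 1 at the 5′ end of each window, Fga held a STAT match at 17 to 25 and a C/EBP match at 116 to 123. Fgb held an AP-1 match at 78 to 84, a STAT match at 89 to 97 and a C/EBP match at 171 to 178. Itih4 had a STAT match at 200 to 208 and a TATA match at 248 to 253, Itih3 a TATA match at 254 to 259, and Socs3 a STAT match at 97 to 105. Fgg held no match to the marked motifs in this window. Such matches are common: of 27025 mouse promoters of this length, 8.47% held the STAT letters, 10.8% the C/EBP letters, 7.93% the AP-1 letters and 14.2% the TATA letters. The cAMP, HNF4 and CCAAT letters were in 1.88%, 0.477% and 37.9%. Over genes with a TSS inside a joining region and a promoter in the table (1745), the share with a STAT match was 6.65%, against 7.71% of the 6031 other listed genes, and for the AP-1 match it was 7.51% against 6.12%. For the C/EBP match the shares were 9.17% against 9.25%, and for the TATA match 9.0% against 9.1%. They were 1.6% against 2.74% for the cAMP match, 34.8% against 37.2% for CCAAT and 0.63% against 0.448% for HNF4. Searched but not marked were an E-box (CACGTG, 9.46% against 9.22%), a GC box (GGGCGG, 54.3% against 54.1%) and an E2F element (TTTNNCGC, 5.79% against 6.91%). None of these differences was tested.

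Most joining regions bridged a pair of sham regions. Of the 1614, 1214 joined 2 sham regions (75.2%), 292 joined 3 (18.1%), 66 joined 4, 33 joined 5, 8 joined 6 and 1 joined 11. The median width of the joining regions was 34712.5 bp (quartiles 24976 and 48908 bp), against 13442 bp for PHx regions over exactly 1 sham region and 12101 bp for those over none. The share of joining regions rose with PHx width. In 4 equal bins of the PHx list, narrowest first, 7, 44, 279 and 1284 regions joined sham regions, and in the widest bin, with 2543 regions, these were 50.5%. Without that bin the set would hold 330 regions. Joined sham regions were also wider than the rest of those that met a PHx region, with a median of 9726 bp against 8184 bp. Along the chromosomes the share of PHx regions that joined ran between 10.5% on chromosome 3 and 19.8% on chromosome 19, and on chromosome X it was 1 of 50.

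**Figure D1:**
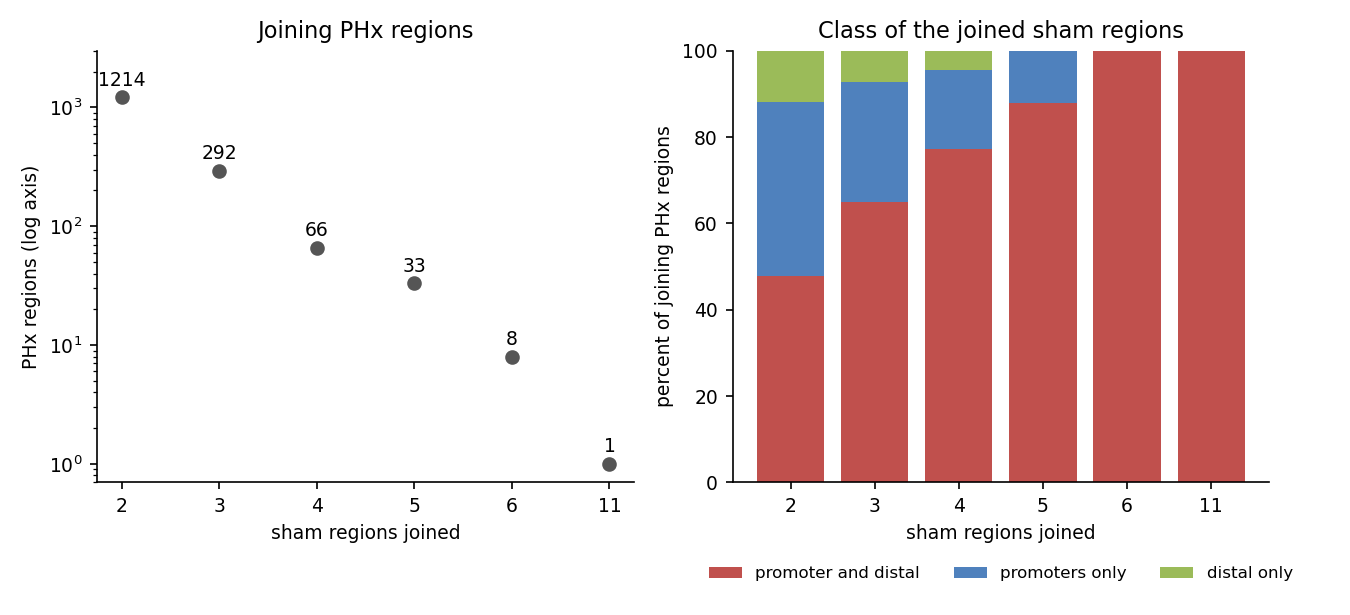
The number of joining PHx regions (left, log axis) and the class of the sham regions they join (right, percent of joining regions), by how many sham regions each joins. Counts fall at each step between 1214 regions joining 2 and 1 region joining 11, and the share that holds both a promoter and a distal sham region is 47.9% at 2, 65.1% at 3 and 77.3% at 4.

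The joining regions covered 65.2 Mb, which was 33.1% of all PHx length. Of this, 44.7 Mb (68.5%) lay in sham regions, 10.5 Mb (16.1%) lay between joined sham regions and 10.05 Mb (15.4%) lay beyond the outermost of them. The length between joined sham regions, which sham liver left unlisted and the PHx region covered, had a median of 4148 bp per joining region (quartiles 1866.5 and 8277.5 bp, range 15 to 94941 bp), or 12.3% of its width. It exceeded the length gained at the outer ends in 864 regions (53.5%) and made up more than 50% of the width in 36. Joined sham regions thus already filled most of the joining region. The median ratio of PHx width to the summed width of the joined sham regions was 1.35 (quartiles 1.17 and 1.67), against 1.49 in the 6164 pairs of 1 PHx and 1 sham region. In 134 joining regions (8.30%) the PHx region was narrower than its sham regions together. All joined sham regions lay whole inside the PHx region in 967 cases, and in the other 647 an outer sham region reached beyond it.

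**Figure D2:**
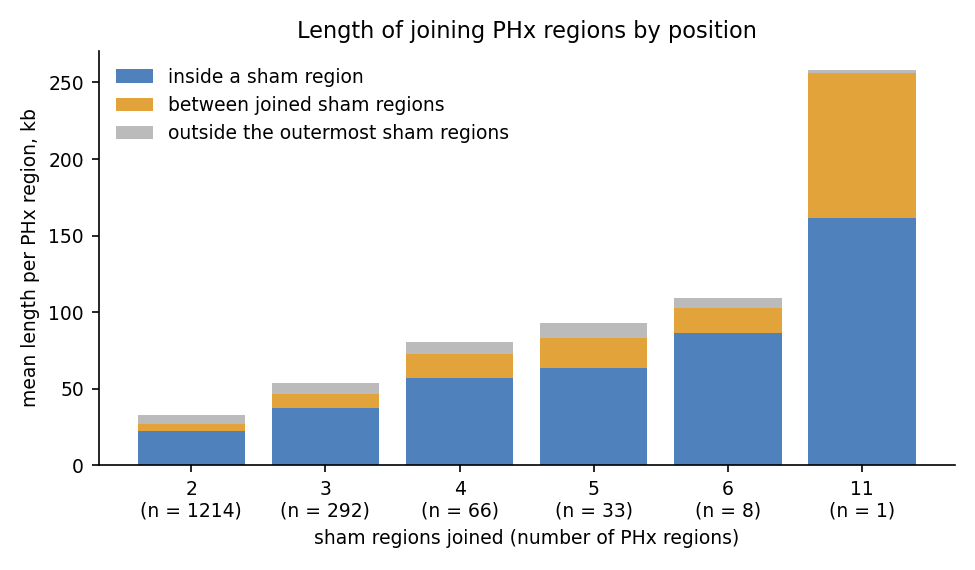
Mean length per joining PHx region in kb, divided into length inside a sham region, length between joined sham regions and length outside the outermost sham region, by number of sham regions joined. Length inside sham regions is the largest share of every bar, and the length between them is 4.82 kb on average at 2 joined sham regions and 19.1 kb at 5.

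Short gaps were bridged far more often than long ones. Among 11579 pairs of neighbouring sham regions, 2178 (18.8%) were joined by the same PHx region. The share joined was 88.6% for gaps up to 1 kb (343 of 387), 79.6% for 1 to 2 kb, 65.2% for 2 to 5 kb, 37.8% for 5 to 10 kb, 13.4% for 10 to 20 kb and 2.27% for 20 to 50 kb. Beyond 50 kb it was 1 pair of 4645. With sham regions up to 5 kb apart merged beforehand, 623 PHx regions would still join at least 2. The median joined gap was 3163 bp (quartiles 1481.5 and 6217.5 bp). The shortest were 4 bp at Cyp17a1, a steroid hydroxylase gene, 6 bp at the flap endonuclease gene Fen1 and 8 bp at Gm24440 beside Lpp. The longest were 51877 bp at Gm51752, between the sham regions at n-TPagg2 and Rcsd1, then 41532 bp at Gm29083 and 37722 bp at Tns1, which encodes the adhesion protein tensin, and each of these 3 gaps held an unlisted peak as described next.

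By the numbering of the peaks, some of the bridged length was not empty in the sham libraries. Peak numbers were taken to run in genomic order within each library. A number missing between neighbouring regions was read as a peak that 1 library had and the merged sham list leaves out. No peak positions were available to check this reading, here or at the loci below. Such unlisted peaks lay in 234 joined gaps (10.7%), which held 32.3% of the bridged length. Of these gaps 107 held a peak of sham library 1, 144 a peak of library 2 and 17 of both. For gaps of 10 to 20 kb, 60.4% of the joined (95% interval 53.4 to 67.1%) and 26.8% of those not joined (24.4 to 29.2%) held one. For gaps of 20 to 50 kb the shares were 80.0% (66.3 to 90.0%) and 46.2% (44.1 to 48.4%). Between 5 and 50 kb, gaps joined after PHx thus held an unlisted sham peak more often than unjoined gaps in the same bin. The intervals cover counting error alone, gaps are no replicates, and the difference was not tested. The other gaps were free of such peaks, and 1388 joining regions (86.0%) had none in any gap.

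**Figure D3:**
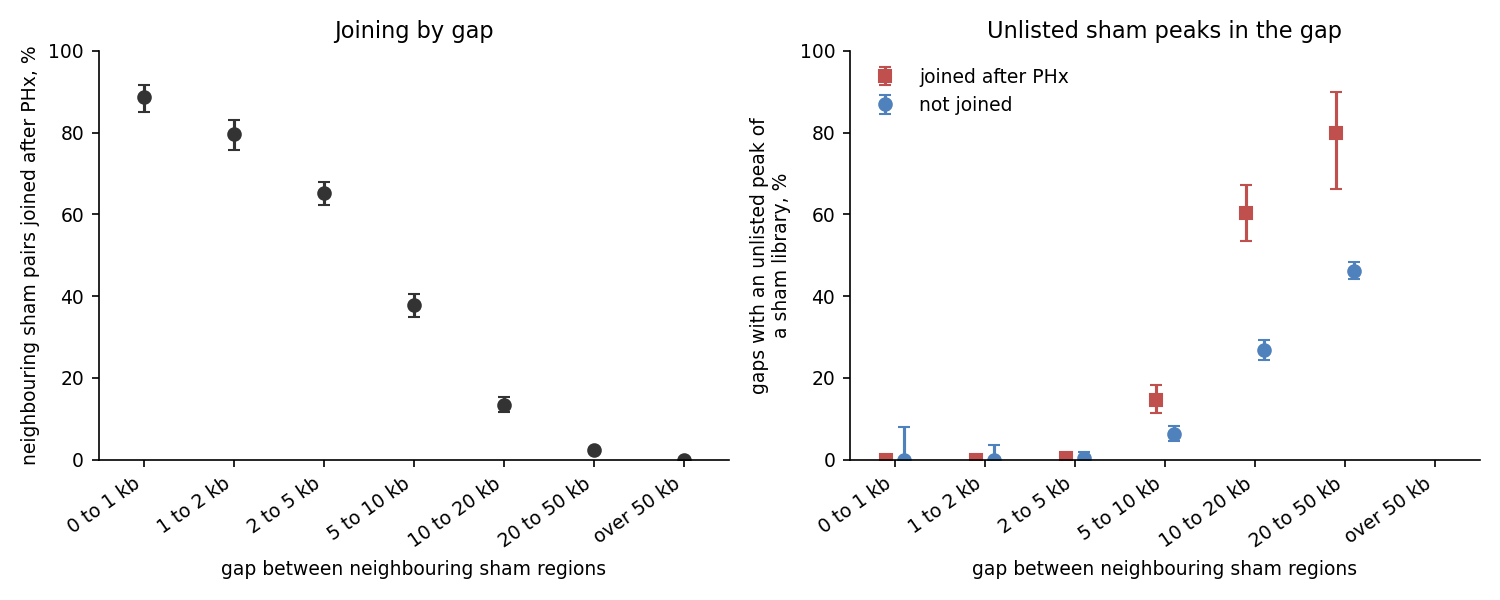
Percent of neighbouring sham pairs joined after PHx (left) and percent of gaps that hold an unlisted peak of a sham library (right; joined gaps as squares, gaps not joined as circles), by gap length. Bars are exact Clopper-Pearson 95% intervals, the single joined gap over 50 kb is not drawn at right, and joined gaps lie above those not joined in the bins between 5 and 50 kb.

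The replicates can be seen only as the number of peaks each library gave to a joining region, since the tables give no position of single peaks. In 652 of the 1614 (40.4%) both PHx libraries had a single peak, which need not reach over every sham region joined. Library 2 alone was split in 687 (42.6%), library 1 alone in 143 (8.86%) and both in 132 (8.18%). In PHx regions that did not join, library 2 alone was split in 5.68%. Within the widest of the 4 bins the shares were 48.3% of joining and 26.0% of other regions. In 535 joining regions (33.1%) library 2 had at least as many peaks as there were sham regions while library 1 had 1 peak. The opposite held in 100. Both PHx libraries had fewer peaks than the sham regions joined in 897 (55.6%). This includes all 652 regions with a single peak of each library, because the rule needs at least 2 sham regions. A single peak of each was also usual in PHx regions over exactly 1 sham region, with 91.8%. The 897 therefore do not show that each replicate made the join. Summed over all joining regions there were 1908 peaks of PHx library 1 and 2681 of PHx library 2, against 4312 peaks of sham library 1 and 4176 of sham library 2 in the joined sham regions. The rule sets 1614 PHx regions against 3778 sham regions, so the higher sham sums follow from how the set was chosen. Kept only where library 2 had a single peak the set would hold 795 regions, and where library 1 had one 1339.

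Promoters were joined to distal regions in 860 joining regions (53.3%, exact 95% interval 50.8 to 55.7%). Here a promoter region is one in the authors' promoter class, which reaches 3 kb around a TSS, and a distal region is one in any other class, gene bodies included. Another 586 (36.3%, 34.0 to 38.7%) joined promoter regions only and 168 (10.4%, 8.96 to 12.0%) distal regions only. The joined sham regions were 2345 promoter and 1433 distal regions. A region that joins more of them has more chances to hold both classes. The share that random pairing would give was not computed, so 53.3% is no sign of a preference. The joining PHx region was itself in the promoter class in 1459 cases (90.4%), against 77.5% of the regions over exactly 1 sham region and 58.8% of those over none. Within the widest bin the shares were 91.8%, 84.4% and 71.9%. Of the 168 that joined distal regions only, 25 were in the promoter class after PHx.

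Counted by gaps, 973 of the 2178 joined gaps (44.7%) lay between a promoter and a distal region, 840 (38.6%) between promoters and 365 (16.8%) between distal regions. Over all 11579 neighbouring pairs, joined or not, these kinds numbered 4611, 5539 and 1429. Up to 5 kb the kind of pair made little difference to how often it was joined: for 2 to 5 kb the shares were 66.2% for promoter and distal, 65.0% for promoter pairs and 63.2% for distal pairs. At 5 to 10 kb promoter pairs were joined less often, with 32.3% (28.2 to 36.7%), against 41.9% (37.5 to 46.3%) for promoter and distal. At 10 to 20 kb the values were 9.96% (7.83 to 12.4%) and 16.1% (13.3 to 19.2%). For promoters of different genes up to 10 kb apart, 60.6% of convergent, 51.9% of divergent and 55.1% of tandem pairs were joined. Differences between kinds of pair were not tested.

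Of the 3738 distal sham regions, 1071 (28.7%) ended up in the same PHx region as a promoter region. The authors' table had assigned 728 of them (68.0%) to the gene of a promoter they were joined to. No such share is given for distal regions beside a promoter region that were not joined. Of the 728, 474 lay downstream of that TSS (65.1%) at a median of 10294.5 bp and 254 upstream at 8556 bp. Among the other 2667 distal regions, whatever their gene, the downstream share was close to this, at 60.6%. The median distance of the 1071 regions to the assigned TSS was 9345 bp, against 17123 bp for the other 2667. This set was chosen for being joined to a promoter region, and short gaps were joined more often, so the choice itself favours short distances. Exons, introns and UTRs held 82.0% of them, against 73.7% of the others, and the 5′ UTR class held 10.6% against 5.81%. Distal intergenic regions were 16.2% against 24.9%. The part of distance in these class shares was not tested.

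The joined sham regions carried 1 gene name in 699 joining regions, 2 in 791 and 3 or more in 124, with at most 5. The PHx table gives each region 1 gene only. In 1538 joining regions that gene was also a name of a joined sham region and in 76 it was another. Names can therefore drop out of the PHx table at these places. Of 2317 gene names found in the sham table only, 916 (39.5%) belonged to a joined sham region. Joined regions were 32.6% of the sham list, and how far joining accounts for the missing names was not tested. Of the 916 names, 797 had a listed TSS inside the joining PHx region. Socs3, Nr4a1, Cdt1 and Ppara were joined into PHx regions named Mir6933, Atg101, Aprt and Gm34622. Counted by position, 2336 of 10925 gene names (21.4%) had a listed TSS inside a joining region, and 745 joining regions (46.2%) held the TSS of 2 or more genes, up to 6.

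The region that joined the most sham regions lay at A630001O12Rik on chromosome 8 (127380788 to 127638556, GRCm39). It spanned 257769 bp, took in 11 sham regions of 4894 to 24462 bp assigned to 5 genes, and covered 94941 bp between them, also the longest such length. Of the 11 sham regions 6 were promoter regions, and 3 of the gaps held an unlisted sham peak. PHx library 1 had 3 peaks there and library 2 had 7, so each replicate was split.

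Another 8 regions joined 6 sham regions each, and 7 of them are named here for the width rank. At Gm42364, 28815 bp were bridged between sham regions over Morn1 and over Ski, which encodes a repressor of SMAD signalling. At Akt1s1, 5 promoter regions were joined, among them those of Atf5, a stress-induced bZIP factor, and Akt1s1, an inhibitory subunit of the mTORC1 kinase. At Hipk2, which encodes a nuclear kinase, sham regions along the gene and at Tbxas1 were joined across 22745 bp, and 1 gap held an unlisted sham peak. The other 4 were Gm15742 (9998 bp bridged), Gm19461 (15440 bp), 5730409K12Rik (17783 bp) and Ankrd23 (8593 bp).

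After A630001O12Rik the longest bridged lengths were 53214 bp at Gm51752, 52355 bp at 3930402G23Rik, 47081 bp at Fam53b and 45463 bp at 6230400D17Rik. The region at 3930402G23Rik on chromosome 8 (10968732 to 11065495) covered the TSS of Irs2, which encodes an adaptor of the insulin receptor. It was 96764 bp wide and joined sham regions of 16644, 6825 and 13831 bp across gaps of 30836 and 21519 bp. PHx library 1 had 1 peak there and library 2 had 6. The Fam53b region joined 4 distal regions in the bodies of Lhpp and Fam53b. In each of these 4 regions library 1 had a single peak and library 2 had 3 to 6. Each also held unlisted sham peaks, in 1 gap at Gm51752 and at 3930402G23Rik and in 2 gaps at Fam53b and at 6230400D17Rik.

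Among regions that joined promoters only, the widest was the 199126 bp region at Cyb561d2, with 6 listed TSSs and 4 sham regions of 8855 to 96079 bp. It was followed by G430095P16Rik (125666 bp), which took in the promoter region of the transcription factor gene Nfix, then Lrig1 (113959 bp), a negative regulator of EGF receptors, Atp5d (110111 bp) and Dnmt3a (104740 bp), a DNA methyltransferase gene whose sham regions all lay in promoters of Dnmt3a and its antisense gene. Among regions that joined promoter and distal regions the next widest were 2210408F21Rik (161938 bp), Cmip (145919 bp), Gm34065 at Septin9 (138743 bp) and LOC118568650 at Shb (135841 bp). The widest that joined distal regions only were Rbpms (97707 bp), Fam53b (88559 bp), Gm29083 (84703 bp), Tns1 (80286 bp) and Ets1 (74305 bp). At Ets1, a transcription factor gene, 1463 bp were bridged and 25258 bp were gained at the outer ends. Unlisted sham peaks lay in 1 gap each at Cyb561d2, Lrig1, Atp5d and Cmip, and in 2 gaps at 2210408F21Rik.

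At the edge of the rule, the second sham region was overlapped by 8 bp at 1700086O06Rik and at Gm17801. Just outside it, the PHx region at Mcmbp ended 32 bp from a second sham region at Sec23ip, and that at Sds, a serine dehydratase gene, ended 38 bp from one at Plbd2.

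Genes of liver function and regeneration were counted by listed TSS. Over 23 lists, which were chosen with earlier results known, 81 of 239 genes with a listed TSS (33.9%) had one inside a joining region, against 21.8% of all 7090 protein-coding names. Apolipoprotein and lipoprotein genes (8 of 13), growth factor genes (7 of 13) and IL-6 and acute phase genes (8 of 15) had the highest shares. Housekeeping genes, which are active in most cells, had 4 of 8. The count of 81 was 31 when library 2 had to have a single peak, 27 when both PHx libraries had to, 35 with sham regions merged up to 5 kb and 10 without the widest bin. The share of all protein-coding names is not given under these settings. Whether the lists stayed above it is therefore not known. Peaks of each PHx library are given below for some list genes only. Library 1 had 1 peak, and library 2 at least as many as the sham regions joined, at others too. These included Nr4a1, Nr1h4, Vegfa, Igfbp2, Gadd45b, Gadd45g at its TSS, Per1, Slc10a1, Asl, Abcc3 and Cry2. The opposite held at F10.

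**Figure D4:**
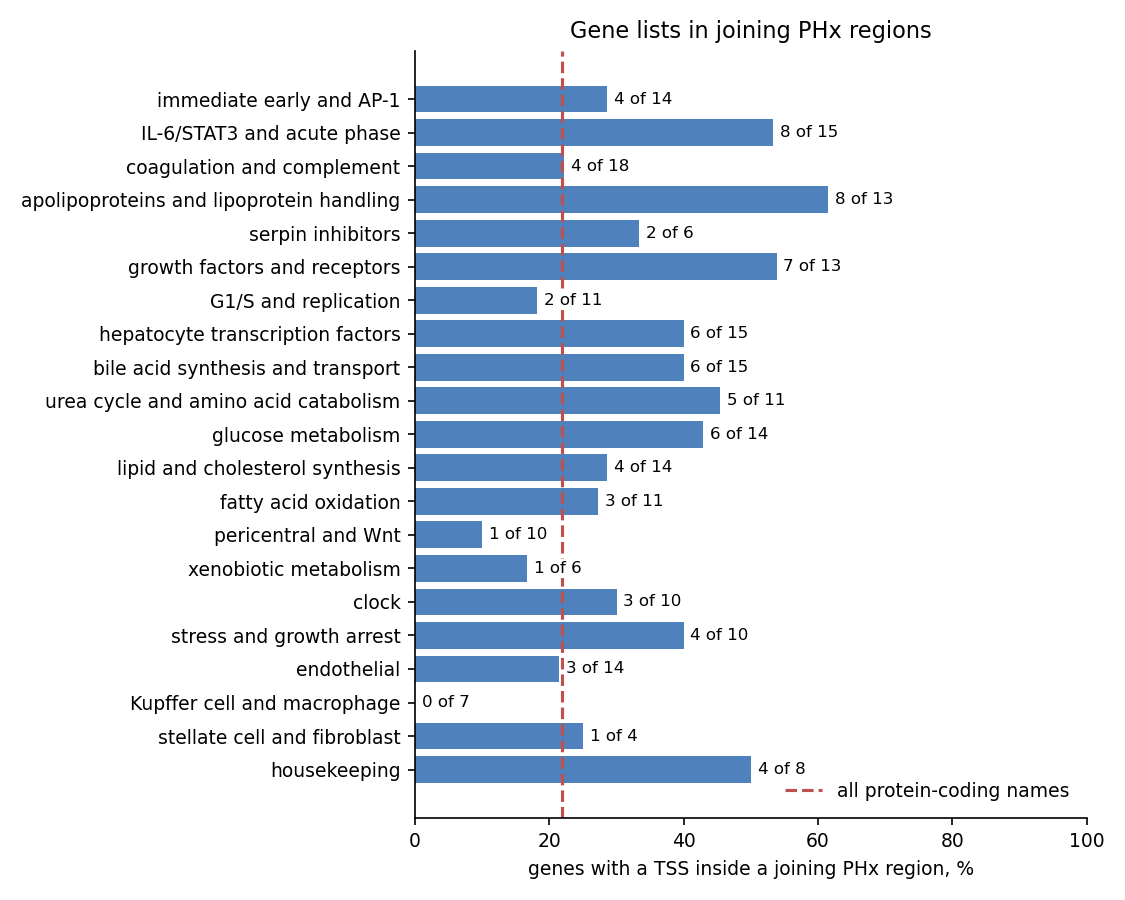
Percent of each list's genes whose listed TSS lies inside a joining PHx region, with counts beside the bars and a dashed line at 21.8%, the share of all protein-coding names. Lists with 1 listed gene are left out, the lipoprotein list is highest at 8 of 13, and the Kupffer cell list has 0 of 7.

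The IL-6 and acute phase genes sat in 5 joining regions with a median of 13702 bp bridged. At Socs3 the PHx region on chromosome 11 (117812487 to 117908341) was 95855 bp wide and joined 5 sham regions of 11292, 7730, 15412, 11797 and 6746 bp. The gaps measured 3744, 3943, 12646 and 240 bp, and none held an unlisted sham peak. The first 2 sham regions were distal intergenic regions assigned to Socs3, and the next 3 were the promoter regions of Socs3, Pgs1 and Mir6933. The upstream kinase gene Jak1 lay in a PHx region of 112577 bp that also joined 5 sham regions, with 17759 bp between them. Il6ra, the IL-6 receptor chain, lay in a region of 33318 bp over sham regions in an exon, an intron and the promoter of Il6ra, with 3405 bp bridged. PHx library 2 had 3 peaks at Socs3, 3 at Jak1 and 1 at Il6ra, and library 1 had 1, 1 and 2.

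The Itih3 and Itih4 region on chromosome 14 (30580561 to 30678729) was 98169 bp wide and held a single peak of each PHx library. It joined sham regions of 20588 bp at Mustn1, 11712 bp at the Itih4 promoter, 7108 bp at the 3′ end of Itih3, 26228 bp at the Itih3 promoter and 12503 bp at Gm41121, across 13702 bp in all. The fibrinogen region on chromosome 3 (82905860 to 82964674) was 58815 bp wide and joined the 3 separate promoter regions of Fgg (22305 bp), Fga (17144 bp) and Fgb (14945 bp) across gaps of 1340 and 2113 bp. Sham regions thus filled nearly all of the fibrinogen region, with 52933 bp of its length. Saa1, Saa4, Hpx, Apcs, Lbp, Osmr and Il6st had no listed TSS in a joining region.

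**Figure D5:**
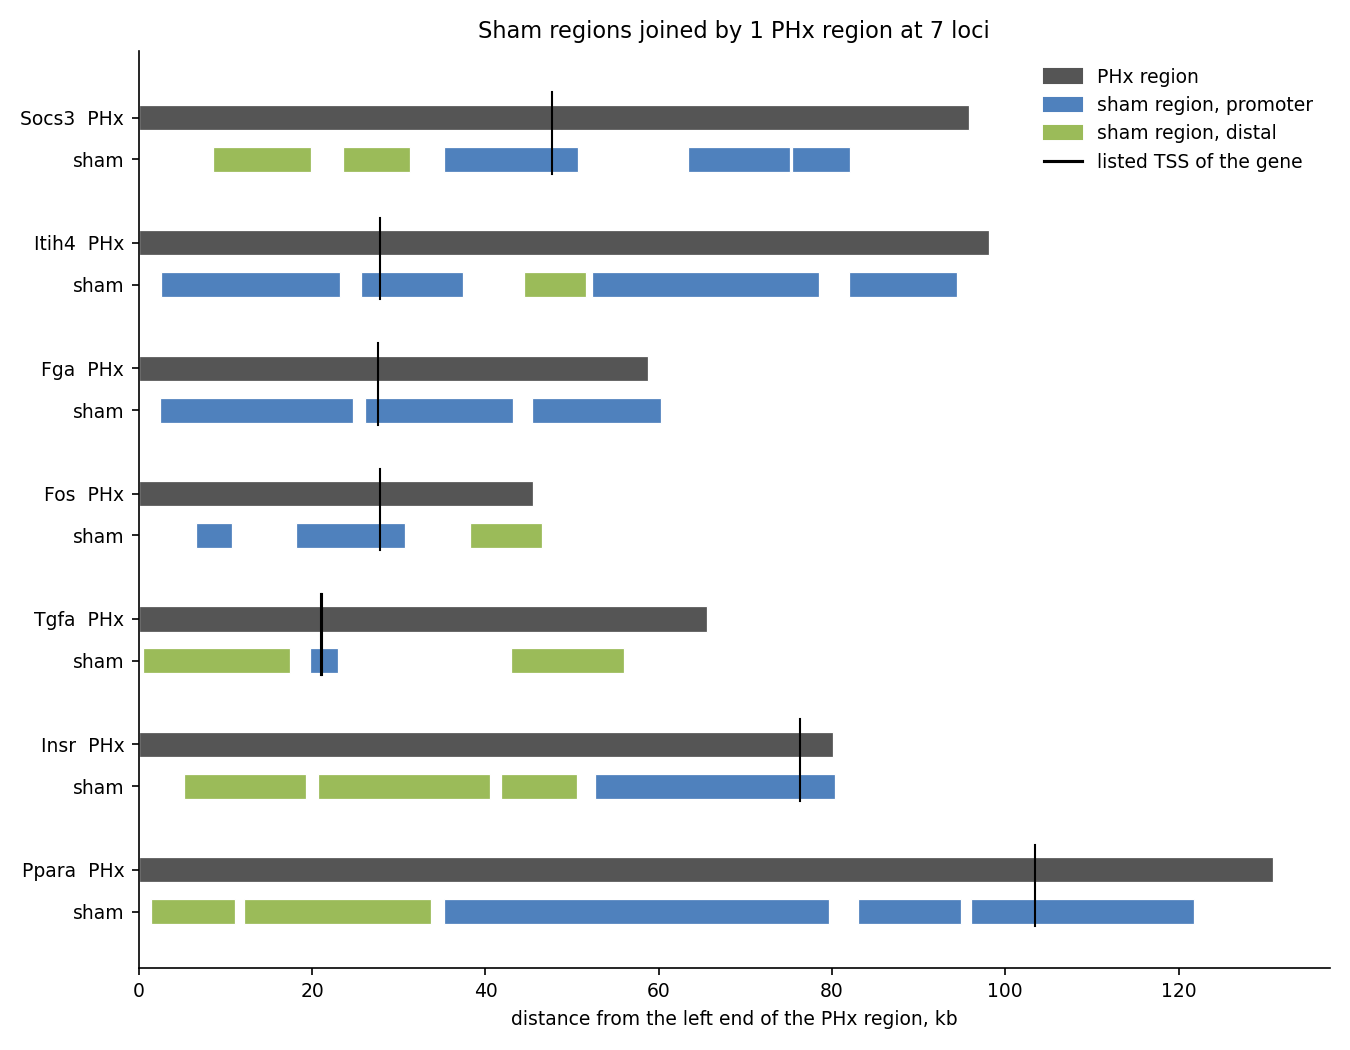
Joining PHx regions (grey) above the sham regions they join (promoter regions in blue, distal regions in green) at Socs3, Itih4, Fga, Fos, Tgfa, Insr and Ppara, by distance in kb along the chromosome; vertical lines mark listed TSSs of the named gene. The bridged length is short against the whole at Fga (3453 bp) and Insr (4862 bp) and longest at Tgfa (22232 bp).

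Immediate early genes, which are induced within minutes of the operation, were in joining regions in 4 of 14 cases. Fos, a subunit of AP-1, lay in a PHx region of 45453 bp on chromosome 12 (85492884 to 85538336) over sham regions of 4130 bp at Gm38543, 12569 bp at the Fos promoter and 8231 bp in distal intergenic sequence, with gaps of 7368 and 7583 bp. PHx library 1 had 1 peak there and library 2 had 3, as many as the sham list had regions. The nuclear receptor gene Nr4a1 (66336 bp, 6955 bp bridged), the antiproliferative gene Btg2 (56919 bp, 8550 bp) and the small Maf gene Maff (60468 bp, 8012 bp) each shared a region with promoters of neighbouring genes, and a gap at Nr4a1 and at Btg2 held an unlisted sham peak. Jun, Atf3, Egr1 and Myc were among the 10 outside.

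Growth factor and receptor genes had a median of 6495 bp bridged, against 4148 bp over all joining regions. Tgfa, a ligand of the EGF receptor made by hepatocytes, lay in a PHx region of 65560 bp on chromosome 6 (86151052 to 86216611). In sham liver its promoter region measured 3250 bp and stood apart from a distal region of 16924 bp by 2343 bp and from an exonic region of 13055 bp by 19889 bp, and the longer gap held an unlisted sham peak. At Igf1, an endocrine growth factor of the liver, a promoter region of 14075 bp and a region of 30687 bp at Igf1os were joined across 18500 bp, also with an unlisted sham peak, in a PHx region of 75705 bp. At the insulin receptor gene Insr the 80068 bp region took in 4 sham regions of 14018, 19755, 8788 and 27701 bp with only 4862 bp between them. Met, the receptor of hepatocyte growth factor, had 3780 bp bridged in 31887 bp and Vegfa, an endothelial mitogen, 6835 bp in 46182 bp. Igfbp2 had 6495 bp bridged, and Tgfb1 22 bp. Egfr, Erbb3, Fgfr4, Tgfbr1, Inhba and Fst were outside.

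The lipoprotein genes had a median of 3285 bp bridged, below that of all joining regions. Apoa1 and Apoa5 shared a PHx region of 115827 bp, which joined sham regions of 53592, 13064 and 10596 bp across gaps of 2068 and 3440 bp. Apoa2 (3285 bp bridged), Apoc1 (1510 bp) and the receptor genes Lrp1 (3856 bp) and Scarb1 (2911 bp) all had under 4 kb bridged. The cholesterol exporter gene Abca1 had 4038 bp bridged at its TSS, and a second joining region lay over its distal part with 8482 bp bridged. Coagulation and complement genes were near the background, with F2, F10, C3 and Mbl1 (4 of 18), and the serpins Serpinf1 and Serping1 were 2 of 6.

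Hepatocyte transcription factor genes were inside in 6 of 15 cases. Hnf4a, a nuclear receptor that maintains hepatocyte identity, had a PHx region of 85422 bp, with a single peak of each library, over sham regions of 35346, 10782 and 28265 bp with gaps of 1656 and 160 bp. At Ppara, the fatty acid receptor, the region of 130902 bp joined 5 sham regions across 7096 bp, while PHx library 2 had 6 peaks there. Cebpa (1934 bp bridged) and Nr5a2 (3500 bp) had short gaps. Hlf, a clock-linked bZIP factor, had 11271 bp and the bile acid receptor gene Nr1h4 had 15373 bp between its promoter regions of 14631 and 6726 bp.

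Bile acid, urea cycle and glucose genes were inside more often than protein-coding names as a whole. Among bile acid genes 6 of 15 were inside, among them the synthesis enzyme Cyp8b1 (4866 bp bridged), the uptake transporter Slc10a1 (3549 bp) and the exporters Abcc2 (3938 bp) and Abcc3 (8288 bp), whereas Cyp7a1 was outside. Of urea cycle and amino acid genes 5 of 11 were inside, with Ass1 (729 bp), Asl (9007 bp), Hal (3857 bp), Got1 (3788 bp) and Gpt (6107 bp). Of glucose genes 6 of 14 were inside, among them the gluconeogenic enzymes G6pc (2691 bp) and Pck1 (1439 bp), the glucose transporter Slc2a2 (1763 bp), Irs2 and Pfkfb3. Pfkfb3, an activator of glycolysis, had 2 joining regions with 15098 and 2814 bp bridged. Irs1 had no listed TSS inside, but 2 distal sham regions assigned to it were joined across 2451 bp. Lipid synthesis genes (4 of 14: Acacb, Elovl5, Elovl6 and Mlxipl) and fatty acid oxidation genes (3 of 11: Cpt1a, Acadm and Acadvl) were closer to the background.

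Among the cell cycle, Wnt, xenobiotic, clock and stress lists the shares lay on both sides of 21.8%, the share of all protein-coding names. Of G1/S and replication genes 2 of 11 were inside, namely E2f2, an S-phase transcription factor gene (18963 bp bridged), and the replication licensing gene Cdt1 (12244 bp), and Ccnd1 and the Mcm genes were outside. Pericentral and Wnt genes had Rnf43 (1 of 10), a Wnt receptor antagonist joined across 16333 bp, and xenobiotic genes had Ces1f (1 of 6). Clock genes were Per1 (7547 bp), Cry2 (11223 bp) and Ciart (5157 bp), 3 of 10. Stress genes were Gadd45b (17451 bp), Gadd45g (14259 bp), Ddit3 (1604 bp) and Sqstm1 (1579 bp), 4 of 10. These counts leave out Znrf3, Lhpp, Arntl and Ddit4, which had joined sham regions assigned to them but no listed TSS inside. At Znrf3 a sham region of the promoter class and 1 in an intron were joined across 15734 bp, with an unlisted sham peak in the gap. The bridged length was 2814 bp at Arntl and 5831 bp at Ddit4. At E2f2, Cdt1, Rnf43, Ces1f and Gadd45b a gap held an unlisted sham peak, and PHx library 2 had 4 peaks at Cdt1, over 3 sham regions, and 4 at Rnf43, over 2.

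Of the lists for other cells of the liver, the endothelial list was close to the 21.8% of all protein-coding names and the rest had 7 listed genes or fewer. Of endothelial genes 3 of 14 (21.4%) were inside, which were Lyve1 (955 bp bridged), Eng (27233 bp over 5 promoter regions) and Sox18 (530 bp). Of Kupffer cell genes 0 of 7 were inside, of stellate cell genes 1 of 4 (Ecm1, 849 bp), and of cholangiocyte and leukocyte genes 0 of 1 each. Whether a gene has a joining region in whole liver cannot be told apart from how many cells of its type the tissue held.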

How the data were processed

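H3K27ac CUT&Tag was done on 4 liver libraries, 2 per group, per the labels. The authors deposited 1 merged, annotated region table for each group. Bowtie2, SEACR, DiffBind and ChIPseeker are listed in the submitters' processing notes without versions or roles, as are the builds GRCm39 and mm39, 2 names of 1 assembly. The sources used here give no caller settings. The deposited values that were used are positions and lengths in bp (start, end, width, distance to TSS), not a signal, per the file headers. A merged region spans the union of its peaks, so a long peak of 1 library can be enough to join.

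Overlaps of 1 bp or more were computed in Python 3.11.15 with pandas 2.3.3 and numpy 2.4.6. Counts and gaps were checked on 500 simulated regions with known joins, and the overlap counts of the real PHx regions against bedtools 2.31.1. Gaps are bases between neighbouring joined sham regions. TSSs are the starts of genes assigned in either table, so a gene never assigned was not counted. Biotypes came from RefSeq on GRCm38.p6, with 264 names unmatched. Intervals are exact Clopper-Pearson 95% intervals (scipy 1.17.1) for counting error alone, because a region is no replicate. No test was run, because no value exists per library.

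The members and the lists were chosen with earlier results of these data known. Named regions are the 8 that joined the most sham regions, the 5 with the longest bridged length, the 5 widest of each kind, the 3 shortest and 3 longest gaps, 2 on each side of the rule's edge, and list genes; promoters were printed for 6 genes so named. Alternatives changed the overlap needed, the sham and PHx widths used, stitching of sham regions, the peaks each PHx library had to show, and the promoter and gene definitions. Values of some list genes are not reported here.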

Additional observations from a re-analysis of the deposited data

How the results depend on the processing

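The 5 summary values were 1614 joining regions, a median bridged length of 4148 bp, 53.28% joining promoter and distal regions, 56.69% with 2 or more gene names, and 81 list genes. Leaving out the 2543 widest PHx regions, the top bin of 4, gave 330 regions, 1965 bp, 49.39%, 40.61% and 10 genes. Regions with a single peak of each PHx library gave 652, 2630 bp, 50.77%, 49.85% and 27 genes. Keeping merged regions in which 1 given PHx library had a single peak gave 795 to 1339 regions, 2845 to 3795 bp, 51.19 to 52.13%, 52.45 to 54.52% and 31 to 74 genes. The lower of each pair is for a single peak of library 2, the higher for library 1. The ends of these regions still came from both libraries, so they do not show joins made by 1 library alone. Stitching sham regions within 5 kb gave 623 regions, 9015 bp, 67.42% with 2 or more names and 35 genes, since stitching removes short gaps by construction, and within 1 kb it gave 4930 bp. A promoter defined by a TSS within 1 kb gave 57.68% joining promoter and distal regions. Leaving out regions with an unlisted sham peak in a gap, chosen after seeing the data, gave a median of 3384 bp and 54.03% with 2 or more gene names. Requiring 500 bp of overlap or 50% of the sham region, leaving out the narrowest bin of 4 of the sham regions, taking gene names of both tables, and taking the authors' gene assignment (also chosen after seeing the data) gave 1216 to 1588 regions, 4126 to 4206 bp, 51.48 to 53.14% joining promoter and distal regions, 56.27 to 58.96% with 2 or more names and 67 to 84 genes, each over the settings that bear on it, with the lowest counts where narrow sham regions were left out. The count thus depends on the widest regions, on short gaps and on the library that must have a single peak, and the cause was not tested. Neither PHx nor sham replicates could be left out in turn, since no position of single peaks was given. No paired analysis was possible because the merged lists hold no values per library. Depth is unknown, so a gap unlisted in sham liver is not shown to lack the mark.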

Other observations

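Transcription factor genes, by the family column of the authors' deposited tables, were inside joining regions in 115 of 459 cases (25.1%), against 21.8% of all protein-coding names. Among families with at least 15 genes, bZIP factors, which include AP-1 and C/EBP proteins, had 13 of 33 (39.4%) and ETS factors 6 of 15. C2H2 zinc finger genes had 24 of 127 (18.9%), homeobox genes 7 of 30, bHLH genes 7 of 32, ZBTB genes 3 of 23, forkhead genes 2 of 16 and HMG genes 2 of 22. These families were looked at after the tables had been seen, overlap with the gene lists above, and were not tested.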
